A study of Mus musculus with 5 samples.

Results

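The conversion of squalene to cholesterol was examined through 9 enzyme genes of the mouse fetal testis, out of 21887 protein-coding genes of RefSeq on the assembled chromosomes. They were chosen by name along the pathway, as Fdft1, Sqle, Lss, Cyp51, Tm7sf2, Msmo1, Nsdhl, Hsd17b7 and Dhcr7, and every peak in a gene body or within 3000 bp outside it was taken. All 9 were found in the annotation. They are not every enzyme of this route, and they were chosen with earlier results of these data known. CUT&RUN, in which an antibody guides a nuclease that cuts out the bound DNA, was done on 100000 cells per assay from whole dissociated fetal male gonads; the labels name no strain, genotype or treatment. A CREB antibody was used at embryonic days E13.5, E16.5 and lastly E18.5, and an H3K4 antibody, with no methylation state named, at E18.5. There was 1 library for each, so no value has a replicate check and no test between stages was possible. Since cell types were mixed, fewer cells of a type and less signal per cell cannot be told apart. An IgG library, whose labels give 2 different stages, also belongs to the series and was not analysed here.

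Cholesterol is made from acetyl-CoA by way of mevalonate and squalene. Squalene is oxidised and closed into lanosterol, whose extra methyl groups are then removed and whose double bonds are rearranged. SREBP2, a transcription factor released from the endoplasmic reticulum when sterols run low, is the best known activator of these genes, and NF-Y and CREB are known to act beside SREBP proteins at several sterol-responsive promoters. In the testis cholesterol is also the substrate from which Leydig cells make androgens, and in adult male germ cells Cyp51 is known as a target of the CREB relative CREM. CREB binds the cAMP response element, spelled TGACGTCA in full. A short form of it, TGACG, reads CGTCA on the opposite strand and is called the short CRE here.

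For CREB 862 peaks were deposited from E13.5, 3528 from E16.5 and 2957 from E18.5, against 21211 for H3K4. Peaks were almost all of 1 width per list, 150, 630, 160 and 210 bp in the same order, and carried no score. Library depth is unknown, and where no peak is listed, binding may still have been present below what these libraries could show. As a check of the tissue, H3K4 peaks stood within 1000 bp of an outer gene end at 3 of 5 Sertoli cell markers (Amh, Dhh and Sox9), 3 of 6 Leydig cell markers (Cyp11a1, Lhcgr and Star) and 1 of 4 germ cell markers (Dazl). They also stood at 2 of 3 endothelial markers, none of 3 macrophage markers and 1 of 5 markers of other organs, beside 52.7% of all protein-coding genes.

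The promoters on which the results turn are shown here so that peaks can be read against sequence. They are RefSeq promoter sequences of GRCm38.p6, which shares coordinates with mm10, each of 300 bases from 250 before to 50 after an annotated start. Capitals mark the short CRE on either strand and the CCAAT box, the site of NF-Y, which reads ATTGG on the opposite strand. At Nsdhl a short CRE and a CCAAT box directly adjoin and form 1 run of capitals. Of the 9 genes, 7 have an entry in this table, with 9 entries in all because Dhcr7 has 3; Fdft1 and Sqle have none. The Lss promoter (chr10:76531355-76531654, plus strand), the Cyp51 promoter (chr5:4104648-4104947, minus strand) and the Msmo1 promoter (chr8:64733529-64733828, minus strand) carried CREB peaks at E18.5 and none at E13.5.
Lss: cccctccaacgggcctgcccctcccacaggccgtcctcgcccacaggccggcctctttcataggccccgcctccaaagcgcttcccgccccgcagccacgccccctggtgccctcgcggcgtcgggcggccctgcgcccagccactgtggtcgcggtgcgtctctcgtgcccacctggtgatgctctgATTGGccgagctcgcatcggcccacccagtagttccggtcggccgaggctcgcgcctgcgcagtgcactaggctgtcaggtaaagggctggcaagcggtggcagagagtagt
Cyp51: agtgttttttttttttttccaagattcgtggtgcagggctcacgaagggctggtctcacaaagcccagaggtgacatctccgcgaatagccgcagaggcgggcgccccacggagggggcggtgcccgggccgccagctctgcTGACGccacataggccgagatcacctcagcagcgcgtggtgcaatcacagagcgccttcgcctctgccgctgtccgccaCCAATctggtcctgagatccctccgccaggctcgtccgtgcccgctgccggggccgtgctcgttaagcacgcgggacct
Msmo1: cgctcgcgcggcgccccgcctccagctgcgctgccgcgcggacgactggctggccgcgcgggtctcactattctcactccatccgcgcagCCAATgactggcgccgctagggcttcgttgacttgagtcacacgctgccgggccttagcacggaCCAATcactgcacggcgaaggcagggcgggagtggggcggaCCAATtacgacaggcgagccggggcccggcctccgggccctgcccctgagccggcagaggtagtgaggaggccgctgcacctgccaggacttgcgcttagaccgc

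The Hsd17b7 promoter (chr1:169969156-169969455, minus strand) and the interval between Nadsyn1 and Dhcr7 carried CREB peaks at all 3 stages. That interval is shown as the Nadsyn1 promoter (chr7:143822803-143823102, minus strand), because that entry holds the whole E18.5 peak. The inner Dhcr7 promoter (chr7:143829964-143830263, plus strand) belongs to the innermost of the 3 annotated starts, and the Nsdhl promoter (chrX:72918271-72918570, plus strand) is given as a contrast without a CREB peak.
Hsd17b7: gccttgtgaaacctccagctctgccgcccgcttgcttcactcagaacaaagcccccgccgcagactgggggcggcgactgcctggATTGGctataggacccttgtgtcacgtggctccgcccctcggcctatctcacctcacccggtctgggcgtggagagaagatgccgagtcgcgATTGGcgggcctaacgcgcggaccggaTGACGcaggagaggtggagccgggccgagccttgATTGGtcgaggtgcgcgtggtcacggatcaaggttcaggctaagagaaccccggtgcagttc
Nadsyn1: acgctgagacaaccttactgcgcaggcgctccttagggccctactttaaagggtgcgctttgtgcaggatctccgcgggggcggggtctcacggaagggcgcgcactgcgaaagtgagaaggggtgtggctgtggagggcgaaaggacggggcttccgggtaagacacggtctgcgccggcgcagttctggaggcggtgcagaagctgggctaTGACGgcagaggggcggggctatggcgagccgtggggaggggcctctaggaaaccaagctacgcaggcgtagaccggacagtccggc
Dhcr7 inner: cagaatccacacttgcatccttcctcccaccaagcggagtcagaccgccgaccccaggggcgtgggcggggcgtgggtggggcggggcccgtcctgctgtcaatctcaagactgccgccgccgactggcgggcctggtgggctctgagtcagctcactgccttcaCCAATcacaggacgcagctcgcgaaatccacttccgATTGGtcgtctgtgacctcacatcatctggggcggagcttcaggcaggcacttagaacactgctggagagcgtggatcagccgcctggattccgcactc
Nsdhl: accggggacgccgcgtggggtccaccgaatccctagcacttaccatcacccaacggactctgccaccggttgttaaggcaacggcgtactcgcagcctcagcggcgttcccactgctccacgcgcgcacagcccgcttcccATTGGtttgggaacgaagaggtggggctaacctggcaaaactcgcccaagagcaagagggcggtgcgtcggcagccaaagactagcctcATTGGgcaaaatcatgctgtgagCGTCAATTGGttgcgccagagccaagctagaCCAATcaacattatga

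CREB peaks were found in the E13.5 list for 2 of the 9 genes (Hsd17b7 and Dhcr7), in the E16.5 list for 4 (Cyp51 and Msmo1 in addition) and in the E18.5 list for 7 (Sqle, Lss and Tm7sf2 in addition). H3K4 peaks were found at all 9. Ebp and Sc5d, enzyme genes of the same route outside the 9, had H3K4 and no CREB peak at any stage. Both an E18.5 CREB peak and an H3K4 peak were found at 7 of the 9, beside 15.4% of all protein-coding genes. Of the 3418 protein-coding genes with CREB at E18.5, 3370 also had H3K4, so having both is usual for a gene with CREB. In the same window, 4.82% of all protein-coding genes had a CREB peak in the E13.5 list (95% Wilson interval 4.55 to 5.12), 18.3% in the E16.5 list (17.8 to 18.8) and 15.6% in the E18.5 list (15.1 to 16.1), and 63.1% (62.5 to 63.8) had an H3K4 peak. The intervals cover counting error only. Because the window grows with the gene, the 10830 protein-coding genes in the length range of the 9 were also counted, and 6.11%, 21.7% and 18.9% of them had CREB at the successive stages and 67.2% had H3K4. Within 1000 bp of an outer gene end, CREB stood at 2, 4 and 6 of the 9 genes and H3K4 at 8, beside 3.94%, 14.9%, 12.9% and 52.7% of protein-coding genes. Each of the 9 genes with a peak at a stage also had one at every later stage, which was common over all protein-coding genes too. Of 1056 genes with CREB in the E13.5 list, 1021 had it at all 3 stages. Of 4012 in the E16.5 list, those same 1021 and a further 1937 without E13.5 had it at E18.5. Over all protein-coding genes the share was highest at E16.5, whereas among the 9 genes the count was highest at E18.5. The genes added at E18.5 had peaks in rows 2709 to 2863 of the 2957 in that list, and the Tm7sf2 peak was nearer to a neighbouring gene. In the first 862 rows of each list, 3 of the 9 genes had CREB at E16.5 and 3 at E18.5.

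**Figure D1:**
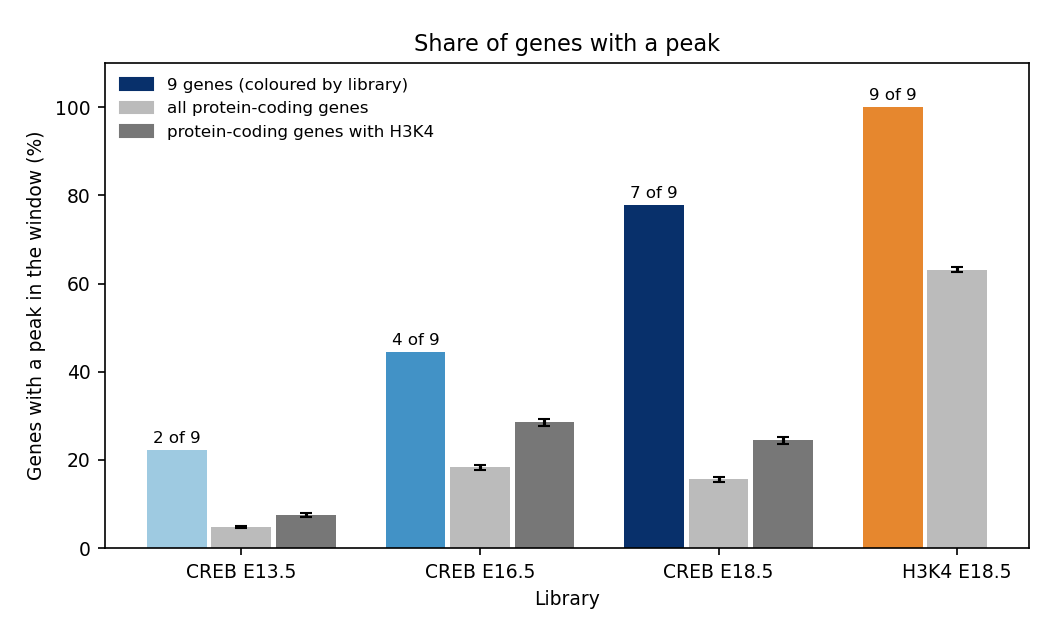
Share of genes with a peak in the gene body or within 3000 bp outside it (%), by library. Bars give the 9 genes, all protein-coding genes and protein-coding genes with H3K4, and whiskers give 95% Wilson intervals; the 9 genes stand at 2, 4 and 7 of 9 for CREB and at 9 of 9 for H3K4.

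Since every one of the 9 genes had H3K4, genes with an H3K4 peak are the closer background. Of 13819 such genes, 7.54% had CREB in the E13.5 list, 28.6% in the E16.5 list and 24.4% in the E18.5 list. Combinations of stages were counted over all protein-coding genes only, and not among those with H3K4. A CREB peak at all 3 stages was found at 2 of the 9 genes, beside 4.66% of all protein-coding genes. A peak at E16.5 and E18.5 without E13.5 was found at 2 (Cyp51 and Msmo1), beside 8.85%. A peak at E18.5 alone was found at 3 (Sqle, Lss and Tm7sf2), beside 2.03%. No CREB peak at any stage was found at 2 (Fdft1 and Nsdhl), beside 79.5%. With 9 genes chosen by function these counts are a description, and whether they stand apart from other lists was not tested.

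**Figure D2:**
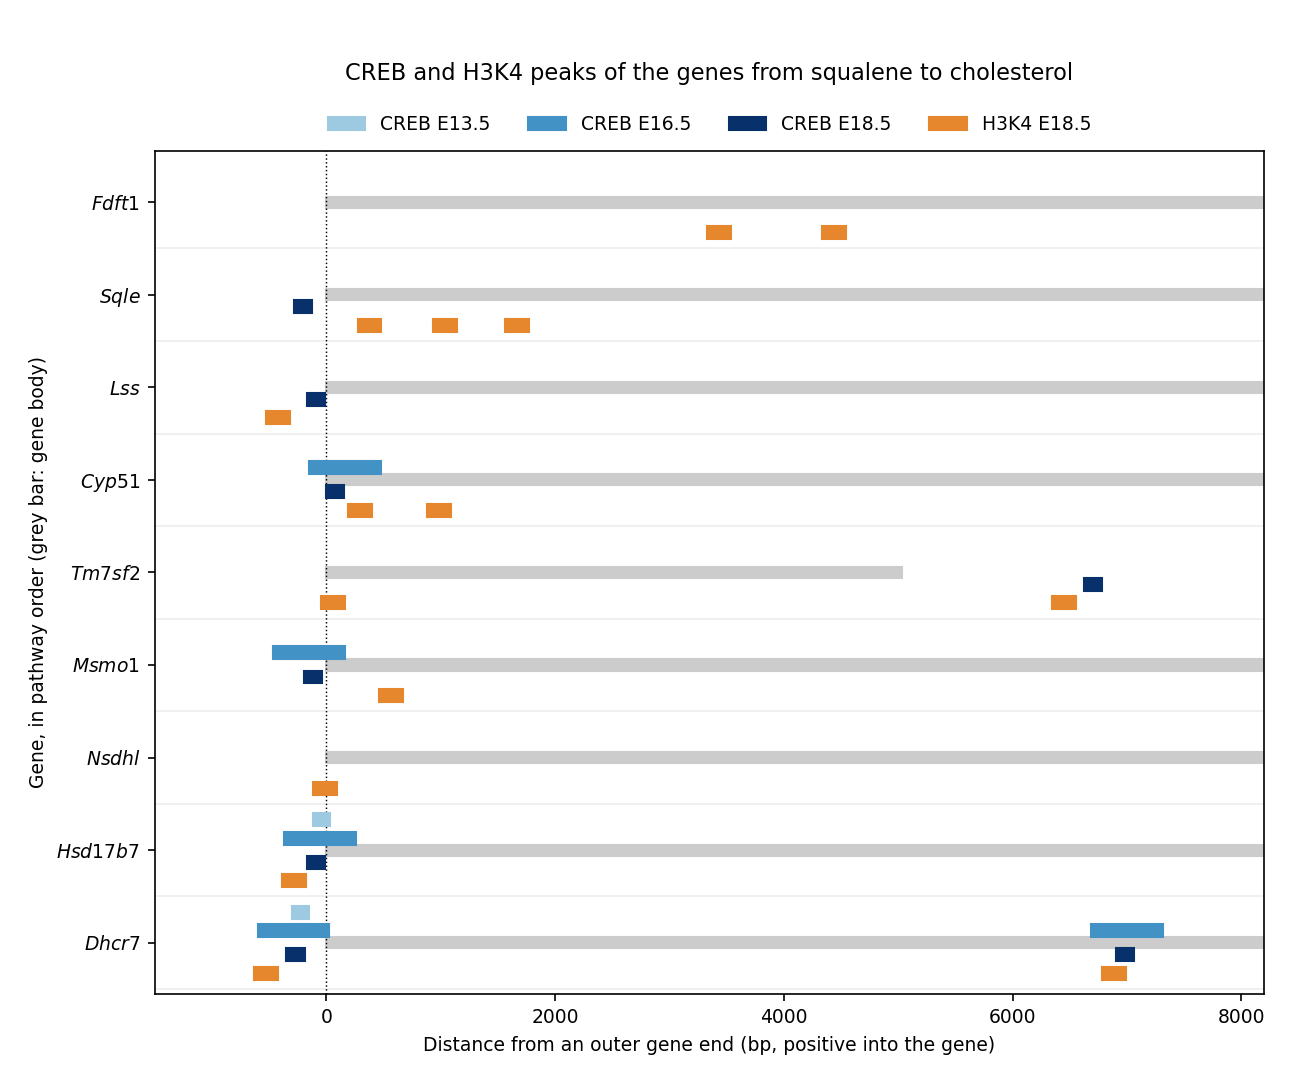
Peaks of the 4 lists drawn to scale along each gene in pathway order, as distance in bp from an outer gene end, which is the start side for 7 genes and the end nearest the peaks for Fdft1 and Sqle. CREB peaks cluster at the zero line, apart from the inner Dhcr7 peaks at 7004 and 6983 bp and the Tm7sf2 peak, which lies beyond the far end of that gene.

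Fdft1 encodes squalene synthase, which joins farnesyl diphosphate units into squalene and so commits carbon to sterols. It lies at chromosome 14, 63145150 to 63181687, and had no CREB peak at any stage. The nearest CREB midpoint lay 307724, 307737 and 307736 bp from a gene end at the successive stages. Fdft1 did have 2 H3K4 peaks, both inside the gene, with midpoints 3434 and 4436 bp from the higher-coordinate end. It was the member without an H3K4 peak within 1000 bp of either outer end; the other 8 had one there.

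Sqle encodes squalene epoxidase, a rate-limiting enzyme of the pathway, at chromosome 15, 59315092 to 59331193. Its CREB peak was listed at E18.5 alone (59314808 to 59314967), with the midpoint 205 bp outside the lower-coordinate end. At E16.5 the nearest CREB midpoint lay 43213 bp from a gene end. Sqle carried the most H3K4 peaks of the 9 genes, 3 in a row inside the gene at 377, 1035 and 1666 bp from the same end. The median was 2 H3K4 peaks over the 9 genes and 1 over the 13819 protein-coding genes with any.

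Lss encodes lanosterol synthase, which closes the squalene chain into the sterol ring system, at chromosome 10, 76531565 to 76557139. Its CREB peak was likewise seen at E18.5 alone, at 76531395 to 76531554, which are bases 41 to 200 of the Lss line above. The midpoint lay 131 bp upstream of the annotated start. The nearest E13.5 and E16.5 peaks were 88883 and 89095 bp from a gene end. The single H3K4 peak lay further upstream, with its midpoint 466 bp before the start, so at Lss the H3K4 peak stood outside the gene and the CREB peak between it and the gene.

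Cyp51, the demethylase that takes the first methyl group off lanosterol, lies at chromosome 5, 4080674 to 4104697. It had a CREB peak at E16.5 (4104218 to 4104847) and again in the E18.5 list (4104539 to 4104698), with midpoints 165 and 79 bp downstream of the start. The E13.5 list held none near it. The 160 bp peak at E18.5 lay wholly within the 630 bp peak at E16.5, and the midpoints differed by 86 bp, the widest shift among the CREB regions of the 9 genes. Both H3K4 peaks were inside the gene, 294 and 983 bp from the same end.

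Tm7sf2, a sterol reductase gene of the next step, had a CREB peak in its window that lay beside a neighbouring gene. The gene is 5030 bp long, at chromosome 19, 6062821 to 6067850, and starts at the higher coordinate. Its E18.5 CREB peak (6061067 to 6061226) lay 1675 bp beyond the opposite end and 61 bp upstream of the start of Znhit2, a zinc finger gene of the HIT family. No CREB peak overlapped the Tm7sf2 promoter. An H3K4 peak (6067689 to 6067898) lay there, 57 bp inside Tm7sf2, where the gene overlaps Vps51 by 9 bp, so it cannot be given to either gene alone. Its midpoint was 49 bp from the end of Vps51, and the other H3K4 peak of the window was nearer to Znhit2, so H3K4 at all 9 genes becomes 8 without peaks nearer to another protein-coding gene. Counting Tm7sf2 as a gene without CREB at its own start leaves 6 of 9 genes at E18.5. The share of all protein-coding genes without peaks nearer to another gene was not counted.

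Msmo1, Nsdhl and Hsd17b7 encode the enzymes that work together to strip the remaining pair of methyl groups from the ring. Msmo1, the oxidase, lies at chromosome 8, 64718123 to 64733578, and had CREB peaks at E16.5 (64733418 to 64734047) and E18.5 (64733615 to 64733774). Their midpoints lay 154 and 116 bp upstream of the start. Its H3K4 peak was on the other side, 563 bp downstream of the start. At 679 bp, the distance between CREB and H3K4 midpoints at E18.5 was the longest of the 9 genes.

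Nsdhl, the dehydrogenase that removes the oxidised carbon, lies at chromosome X, 72918521 to 72958528, and had no CREB peak. The nearest CREB midpoint was 757798, 269548 and 269625 bp from a gene end at the successive stages. An H3K4 peak (72918406 to 72918615) sat across its start, with the midpoint 11 bp upstream. The gap to Cetn2, a centrin gene, is 176 bp and the same H3K4 midpoint was 166 bp from the end of Cetn2. Within this demethylating set, then, CREB peaks were listed at the genes before and after Nsdhl and not at Nsdhl.

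Hsd17b7, the ketosteroid reductase that ends each round of demethylation, lies at chromosome 1, 169949535 to 169969242. It was 1 of 2 genes with CREB at every stage, spanning 169969211 to 169969360 in the E13.5 list, 169968986 to 169969615 in the E16.5 list and 169969253 to 169969412 in the E18.5 list. The midpoints lay 80, 95 and 127 bp upstream of the annotated start. All 3 peaks shared 108 bp, and their midpoints spread over 47 bp. Between Hsd17b7 and the long noncoding RNA gene 3110045C21Rik the gap is 166 bp, and the E18.5 midpoint lay 77 bp from that gene's end. The peaks thus lay by the facing ends of both genes and cannot be given to either alone, and the same holds for the H3K4 peak 317 bp upstream of the Hsd17b7 start.

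Dhcr7, the reductase that turns the last intermediate into cholesterol, lies at chromosome 7, 143823167 to 143848410, and was the gene with 2 separate CREB regions. The outer region held peaks of every stage, spanning 143822863 to 143823012 in the E13.5 list, 143822565 to 143823194 in the E16.5 list and 143822818 to 143822977 in the E18.5 list. Their midpoints lay 230, 288 and 270 bp upstream of the outer Dhcr7 start, spread over 58 bp, with 115 bp in common. Nadsyn1, an NAD synthetase gene that runs the other way, lies beyond a gap of 304 bp, and the same midpoints were 75, 17 and 35 bp from its end. The outer region is thus shared and nearer to Nadsyn1 than to Dhcr7 at each stage.

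The inner region of Dhcr7 had no neighbour. It held peaks at E16.5 (143829857 to 143830486) and E18.5 (143830071 to 143830230), with midpoints 7004 and 6983 bp inside the gene from the outer end. Those midpoints lay 43 and 64 bp upstream of a further annotated start of Dhcr7, and the E18.5 peak covers bases 108 to 267 of the inner Dhcr7 line above. An H3K4 peak (143829953 to 143830162) overlapped the E18.5 CREB peak by 92 bp. A peak that lies inside the gene body by its outer ends was therefore at a start site by the promoter table. No inner peak was in the E13.5 list.

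**Figure D3:**
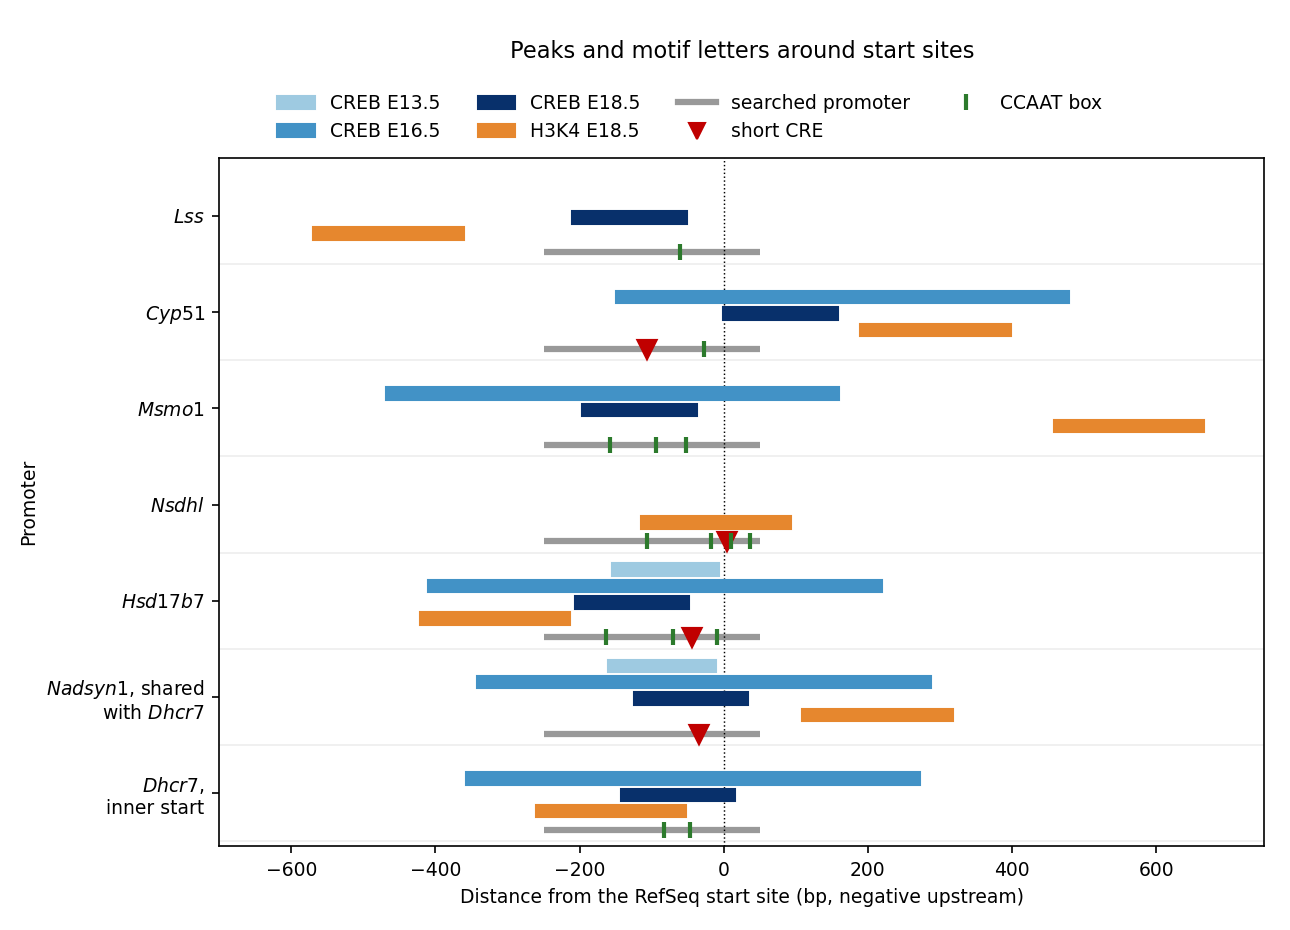
CREB and H3K4 peaks around RefSeq start sites, as distance in bp from the start with negative values upstream; grey lines are the searched promoters, triangles short CREs and green ticks CCAAT boxes. The short CRE lies inside all 3 CREB peaks at the Nadsyn1 and Dhcr7 interval, beside the E18.5 peak at Hsd17b7 and under no CREB peak at Nsdhl.

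The full CRE was in none of the 9 promoter entries of these genes, beside 1.79% of all 32851 entries and 10.3% of the 2569 that overlap an E18.5 CREB peak. The short CRE was searched on both strands and also counted within the full CRE. It was in 3 of the 9 entries (Cyp51, Hsd17b7 and Nsdhl), beside 20.8% of all entries and 16.1% of the 29191 without any CREB peak. Among the 6 entries of these genes that overlap an E18.5 CREB peak it was in 2, beside 62.2% of all entries with such a peak. Cyp51 and Hsd17b7 had both a CREB peak and a short CRE, while Lss, Msmo1 and the 3 Dhcr7 entries had a peak and no short CRE. Nsdhl had a short CRE and no peak, and the Tm7sf2 start had neither. A match is a description of letters and not a binding site, and no match refers only to these 300 bases.

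At the shared interval of Nadsyn1 and Dhcr7, the Nadsyn1 line holds a short CRE at bases 214 to 218 (143822885 to 143822889). It lay inside the CREB peak of every stage and 10 bp from the E18.5 midpoint. At Hsd17b7 the short CRE (169969247 to 169969251), 46 bp upstream of the start, lay inside the E13.5 and E16.5 peaks and just outside the E18.5 peak. At Cyp51 the short CRE, 108 bp upstream, lay inside the E16.5 peak and outside the E18.5 peak. At Nsdhl the letters CGTCA began 3 bp after the start, with no CREB peak over them.

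The CCAAT box was more common, found on either strand in 7 of the 9 entries beside 37.4% of all entries. Among entries with an E18.5 CREB peak it was in 5 of the 6 of these genes, beside 55.0%. Msmo1 had 3, all within its E16.5 and E18.5 CREB peaks and 55, 96 and 160 bp upstream of the start. Hsd17b7 also had 3, and the inner Dhcr7 start had 2, 17 and 19 bp from the E18.5 midpoint. Nsdhl had 4 and no CREB peak. The GC box GGGCGG, or its other strand CCGCCC, was in 8 of 9 entries, beside 35.7% of all. Among entries with an E18.5 peak it was in 6 of 6, beside 74.0%. The sterol regulatory element core, an A followed by TCACCCCAC, was searched with at most 2 mismatches on either strand. It was found in 5 of 9 entries (Lss, Cyp51, Msmo1, Nsdhl and Hsd17b7), beside 22.9% of all. Among entries with an E18.5 peak it was in 4 of 6, beside 22.0%. The match at Nsdhl had 1 mismatch and the other 4 had 2.

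CREB and H3K4 peaks lay side by side at these genes. At E18.5, the stage at which both were measured, the 8 CREB peaks had their nearest H3K4 midpoint 93 to 679 bp away, with a median of 256.5 bp, beside a median of 278 bp over all 2947 CREB peaks on assembled chromosomes. Only the inner Dhcr7 peak touched an H3K4 peak. At Hsd17b7 the edges were 5 bp apart and at Cyp51 30 bp apart. The side varied, for H3K4 lay toward the middle of the gene from CREB in Sqle, Cyp51 and Msmo1 and away from it in Lss, Hsd17b7 and both Dhcr7 regions, while the peak beyond Tm7sf2 had it on the Tm7sf2 side. Of the 5 CREB peaks at E16.5, which are wider, 4 touched an H3K4 peak. The share of all CREB peaks that touch an H3K4 peak was not counted at either stage. Whether these genes stand apart in such contact was therefore not tested.

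List position, the row of a peak in its file, separated the genes seen at a single stage from the others. The sources used here do not say what the order follows. At E18.5 Hsd17b7 stood in row 98 of 2957, Cyp51 in 449, the outer Dhcr7 peak in 469, Msmo1 in 1123 and the inner Dhcr7 peak in 2085. The peaks seen at E18.5 alone came last, with the one by Tm7sf2 in row 2709, Lss in 2844 and Sqle in 2863. Over the whole E18.5 list the median row was 2320 for the 523 peaks seen at that stage alone, 1654 for the 1655 shared with E16.5 alone and 450.5 for the 740 shared with both other stages. The late rows of the 3 genes thus go with a pattern of the whole list.

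**Figure D4:**
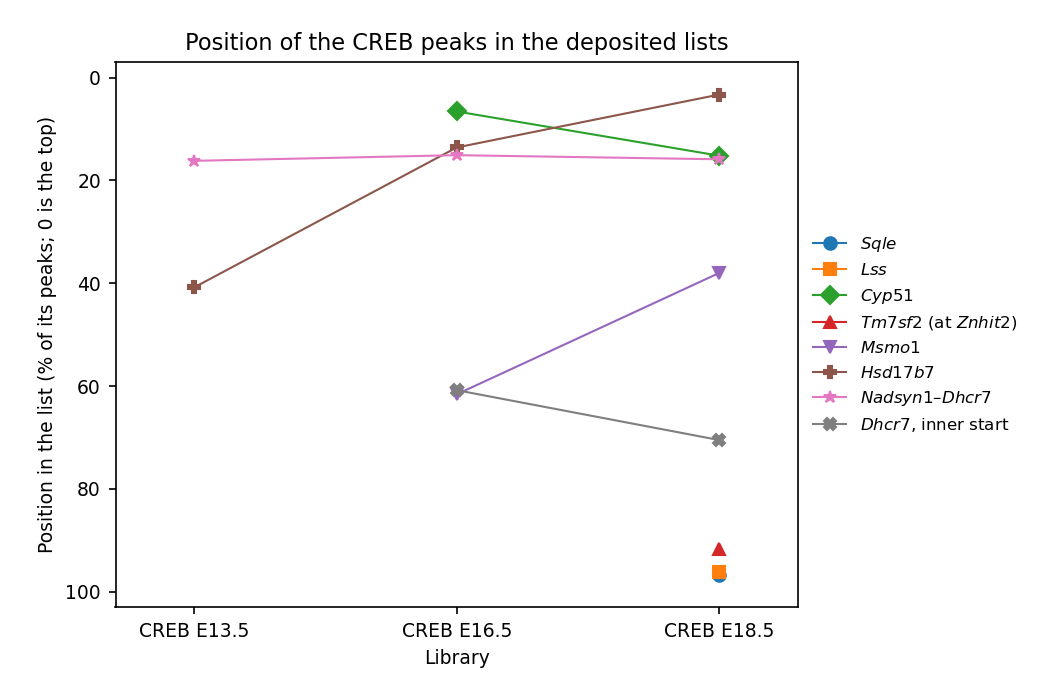
Position of each CREB peak of the 9 genes in its deposited list, as percent of the peaks in that list with the top at 0, for the 3 stages; lines join peaks of the same region. Hsd17b7 stands at 40.8, 13.6 and 3.31%, and the Tm7sf2, Lss and Sqle peaks stand at 91.6, 96.2 and 96.8% of the E18.5 list.

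In the E16.5 list, Cyp51 stood earliest in row 233 of 3528, followed by Hsd17b7 in 481, the outer Dhcr7 peak in 534, the inner one in 2145 and Msmo1 in 2173. In the E13.5 list the outer Dhcr7 peak stood in row 140 of 862 and Hsd17b7 in 352. As percent of the list at the successive stages, the outer Dhcr7 peak stood at 16.2, 15.1 and 15.9% and Hsd17b7 at 40.8, 13.6 and 3.31%. The lists differ in length, so these positions show no change in binding. When only the first 862 peaks of each list were taken, Hsd17b7, Dhcr7 and Cyp51 were the 3 genes with CREB at E16.5, beside 5.28% of protein-coding genes, and the same 3 had it in the E18.5 list, beside 5.16%. The peaks by Sqle, Lss and Tm7sf2 were in rows beyond those 862, and the part of list length in the E18.5 count was not tested.

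Other genes of the pathway were looked at beside these. Ebp, an isomerase gene, and Sc5d, a desaturase gene, also act after lanosterol, and neither had a CREB peak at any stage, though each had H3K4. The nearest E18.5 CREB midpoint was 39467 bp from an end of Ebp and 975671 bp from an end of Sc5d. Among genes that make squalene precursors from acetyl-CoA, Hmgcs1, Pmvk and Idi1 had CREB peaks at all 3 stages. Mvd and Fdps had them at E16.5 and E18.5 and not at E13.5, and Acat2 had none. The window of Mvk held peaks at E16.5 and E18.5 too, with midpoints 210 and 186 bp from Mvk but 19 and 5 bp from the end of the neighbouring gene Mmab. Ggps1, whose enzyme takes farnesyl diphosphate into the geranylgeranyl branch and not to squalene, had peaks at all 3 stages. Their midpoints lay 14, 16 and 6 bp from the end of Ggps1, and 57, 27 and 49 bp from the end of Arid4b. Sqle, Lss and Tm7sf2, seen at E18.5 alone, had no counterpart among these named precursor genes. This difference was not tested, and the genes were chosen with earlier results known.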

How the data were processed

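Deposited peak lists of 4 of the 5 libraries were used, 1 library per antibody and stage, each from 100000 gonadal cells passed through a 70 µm filter, per the labels. Columns 2 and 3 hold the start and end of each peak and no score, a unit for which the authors deposited no normalization. Bowtie2 2.5.2, Trim Galore 0.6.10 and MACS2 are listed, with the build mm10, by the submitters' processing notes; how peaks were called and whether IgG served as control is not stated there. The 9 members and all gene lists were chosen with earlier results of these data known.

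Gene bounds came from a RefSeq table of GRCm38.p6, without exons, so no exon, intron or UTR is stated; strand came from RefSeq promoters. A gene had a peak when the peak overlapped its body or 3000 bp on either side by at least 1 bp. Positions are 1-based, and distances run from peak midpoints. All 9 members are named, with remaining enzymes and precursor genes of the pathway and any gene with an end within 1000 bp of a member's peak. Some genes of the pathway are not reported here. With 1 library per group there was no test and no p-value. The software was Python 3.11.15 with pandas 2.3.3, scipy 1.17.1, matplotlib 3.10.9 and numpy 2.4.6. The overlap code was tested on simulated data: in lists made after each of the 4 libraries, on 21887 genes, 200 of 200 planted genes were recovered.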

Additional observations from a re-analysis of the deposited data

How the results depend on the processing

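With gene ends of 1000 bp, a narrower or wider window around the body, midpoints in place of overlap, or peaks of 150 bp, each count of the 9 genes moved by at most 1. Taking the first 862 rows left 3 genes at E18.5, with 5.28% of protein-coding genes at E16.5 and 5.16% at E18.5. Over all annotated genes the shares were 2.60%, 10.1% and 8.47% for CREB at the successive stages and 36.2% for H3K4. Chosen after seeing the data, leaving out peaks nearer to another protein-coding gene left 1 gene with CREB at E13.5 and 1 at all stages, Hsd17b7, because the outer Dhcr7 peaks are nearer to Nadsyn1. Noncoding genes had no part in that rule, so 3110045C21Rik could not remove Hsd17b7. The E18.5 CREB midpoint lay 90 bp from the Hsd17b7 end and 77 bp from the 3110045C21Rik end, and the H3K4 midpoint 280 and 113 bp. At E13.5 and E16.5 the CREB midpoints were nearer to Hsd17b7. The rule also left 6 genes with CREB at E18.5 and 8 with H3K4, since the Tm7sf2 peaks are nearer to Znhit2 or Vps51. The share of all protein-coding genes under this rule was not counted, so its counts have no background here. By reciprocal overlap of 50%, 0 regions held every stage, since 630 bp and 160 bp peaks cannot meet it. Edge to edge, the median CREB to H3K4 distance at E18.5 was 71.5 bp. Under E18.5 CREB peaks alone, also chosen after seeing the data, 0 entries of the 9 genes held a short CRE, 4 a CCAAT box and 4 a GC box. Fewer bases were searched, and the share over all entries was not counted. The short CRE under the outer Dhcr7 peak lies in the Nadsyn1 entry and outside the Dhcr7 entries, so it was not counted. The planned motif search over whole peak intervals was not run, because no genome was used here. No paired analysis was possible because each group has 1 library, and for the same reason none could be left out. Depth limits what a missing peak can show.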

Other observations

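In the E18.5 list the CREB peak of Pmvk stood in row 72, that of Idi1 in 275, that of Hmgcs1 in 413, that of Mvd in 1158 and that of Fdps in 1323, all genes of squalene precursor synthesis. The peaks of the squalene to cholesterol genes stood in rows 98 to 2863. Pmvk, a kinase gene, resembled the inner Dhcr7 region in that its CREB peaks lay inside the gene by its outer ends, with midpoints 4405, 4366 and 4417 bp from the nearer end at the successive stages. The order of rows has no stated meaning and these differences were not tested.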
